A study of Mus musculus with 10 samples.

Results

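The genes described here are 31 genes of T helper, cytotoxic, regulatory T and natural killer (NK) cells, looked up by symbol in the deposited table of gene expression in mouse gonadal fat. All 31 were found among its 40503 genes, and 21 of them passed the filter on low values used for testing. The rule names them by the cell types they mark and uses no measured value, though it was set with earlier results of these data known. The study sequenced polyA RNA from gonadal white fat of 10 mice, all female and C57BL/6, with 5 in each group. The KO-labelled mice carried an inducible adipose deletion of Med19, a subunit of Mediator, the complex through which transcription factors reach RNA polymerase II. They received tamoxifen at 100 mg/kg for 5 days at 12 weeks of age, and fat was taken 14 days after it. The WT mice were female C57BL/6 mice of the same labelled age. The sources used here do not say whether they carried a Cre transgene or received tamoxifen, or which promoter drove the Cre.

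T cells read antigen through the T cell receptor, whose chains signal through the CD3 subunits and the kinases Lck and Zap70. CD4 marks helper and regulatory T cells, CD8 marks cytotoxic T cells, and NK cells carry activating receptors without a rearranged antigen receptor. Visceral fat is known for a resident population of regulatory T cells that express Foxp3 and ST2, the receptor for the alarmin IL-33 encoded by Il1rl1. ST2 exists as a membrane receptor and as a shorter secreted form that binds IL-33 as a decoy. Mast cells and group 2 innate lymphoid cells express ST2 too.

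Sequences are shown for 2 places where the members' values turn on the transcript. The first is the point where the coding sequences of the ST2 forms part, 985 coding bases from their shared start, from GENCODE M21 on GRCm38. The lower-case letters are the last 60 shared bases (chr1:40446616-40446675, + strand), and capitals mark the bases that only one form codes. The short form (ENSMUST00000173514, 337 codons) reads on from the shared exon into chr1:40446676-40446701, and the long form (ENSMUST00000053043, 567 codons) continues at chr1:40450075-40450134.
Il1rl1 short form: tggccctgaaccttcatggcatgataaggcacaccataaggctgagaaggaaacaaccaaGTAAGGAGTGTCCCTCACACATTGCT
Il1rl1 long form: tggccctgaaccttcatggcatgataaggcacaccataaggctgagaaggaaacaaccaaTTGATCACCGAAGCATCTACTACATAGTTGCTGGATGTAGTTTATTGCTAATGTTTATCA

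The second is the constant region of the T cell receptor beta chain, which the mouse encodes in the near-identical genes Trbc1 and Trbc2. Their first constant exons were equal at 374 of 375 bases (99.7%). Bases 201 to 320 of that exon are printed for Trbc1 (chr6:41538418-41538537, + strand) and Trbc2 (chr6:41546930-41547049, + strand), with the base that differs in capitals. Reads from this exon cannot be assigned to one gene over most of its length, so the separate values of Trbc1 and Trbc2 are uncertain.
Trbc1: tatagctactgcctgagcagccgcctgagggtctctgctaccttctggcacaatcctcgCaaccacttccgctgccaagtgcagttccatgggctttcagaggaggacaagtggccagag
Trbc2: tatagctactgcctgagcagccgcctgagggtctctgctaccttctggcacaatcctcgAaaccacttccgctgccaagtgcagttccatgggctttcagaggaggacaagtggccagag

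Expression is given as RPKM, reads scaled to gene length in kilobases and to library size, and whole reads were recovered from the RPKM steps. Libraries held 14444263 to 20183652 such reads. Med19 was at 6.79 ± 0.85 RPKM in KO-labelled libraries and 6.70 ± 0.89 RPKM in WT libraries (SD, n = 5 each; 2-sided exact permutation test, p = 0.881, smallest possible p 0.0079). Med19 RNA thus gave no check of the labels, and every direction given here rests on them. Of 17038 genes tested, 681 were higher and 332 lower in KO-labelled libraries at an adjusted p under 0.05 (limma, Benjamini-Hochberg). With median-ratio scaling of the libraries the split was 101 higher and 416 lower. Adipocyte markers were the large change in this tissue, with 9 of 10 lower and summed levels of 2714 to 3318 RPKM in KO-labelled libraries, against 9549 to 14125 RPKM in WT libraries.

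One WT library stood apart for these genes. The library of WT animal 2 was the highest of all 10 libraries in 14 of the 31 members, the highest WT library in 21, and the lowest in 0. The members together took 0.00762 to 0.00920% of the reads in the KO-labelled libraries, against 0.0101% in WT animal 2 and 0.00667 to 0.00760% in the other WT libraries. These shares rest on 1387 to 1596 reads in KO-labelled libraries and 974 to 1616 reads in WT libraries. Il7r alone gave 274 to 388 of them in KO-labelled libraries and 141 to 279 in WT libraries. Il1rl1 gave 171 to 257 in KO-labelled libraries and 106 to 168 in WT libraries. The 2 genes thus weigh heavily in the shares, which were not computed without them. Of 8 genes of lymph node stroma and high endothelial venules, 5 were tested and 0 called by limma or voom, with 0 at an unadjusted p under 0.05. They summed to 24.7 to 36.9 RPKM in KO-labelled libraries and 24.4 to 36.6 RPKM in WT libraries, the highest of the WT libraries being WT animal 2, and most of each sum was Cxcl13. Ccl21a was listed at 0 in all 10, and Glycam1 ranged over 0 to 0.316 RPKM in KO-labelled libraries and 0.0987 to 0.545 RPKM in WT libraries. The summed B and plasma cell markers were 688 to 1597 RPKM in KO-labelled libraries and 861 to 1697 RPKM in WT libraries, with 1439 RPKM in WT animal 2. The part of lymphoid tissue in the levels of that library was not tested.

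**Figure D1:**
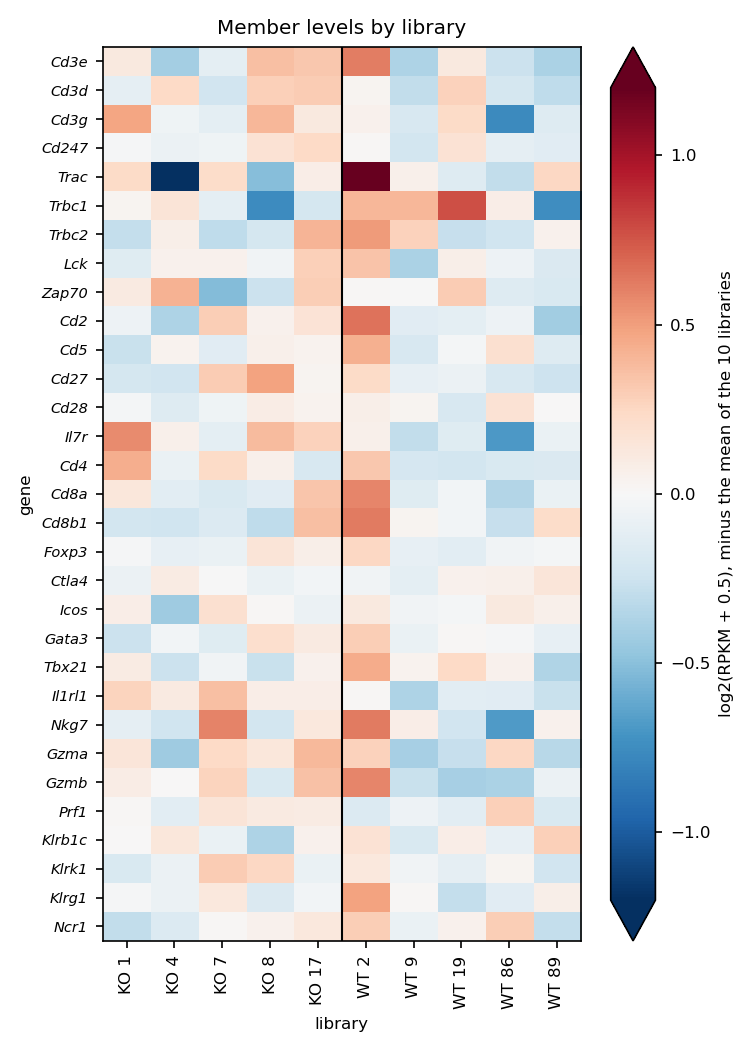
Level of each of the 31 genes (rows) in each library (columns), as log2(RPKM + 0.5) minus that gene's mean over the 10 libraries, with red above and blue below that mean. The column of WT animal 2 is the highest of the 10 in 14 genes, and no other column is the highest in more than 3.

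None of the 31 T, Treg and NK cell genes was called by the test used for all genes. Of the 21 members tested, 0 were called by limma, against 5.95% of all genes tested. With the filter lowered to 0.1 RPKM all 31 entered the fit and again 0 were called, against 4.06% of 20716 genes. In a set this small, 0 calls is not far from those shares. At an unadjusted p under 0.05 there were 2 of 31, Il1rl1 and Il7r, both higher in KO-labelled libraries, against 21.9% of all genes in that fit. Il7r had 141 to 388 reads a library and Il1rl1 106 to 257, against 2 to 121 for the other 29 genes. The 21.9% covers genes of all read depths, so it is not a background matched to the members. A fit of the recovered reads with voom, which weights each value by its read depth, called 1, Il1rl1. The median difference over all 31 was 0.01 on the log2(RPKM + 0.5) scale, with 18 above 0, beside a median of 0.08 and 66.7% above 0 for all genes. Without WT animal 2 the median of the 31 was 0.08, with 20 above 0 and 0 called. In bulk tissue, fewer cells of a type and less RNA per cell cannot be told apart, and the p-values measure only the spread between these 10 mice.

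**Figure D2:**
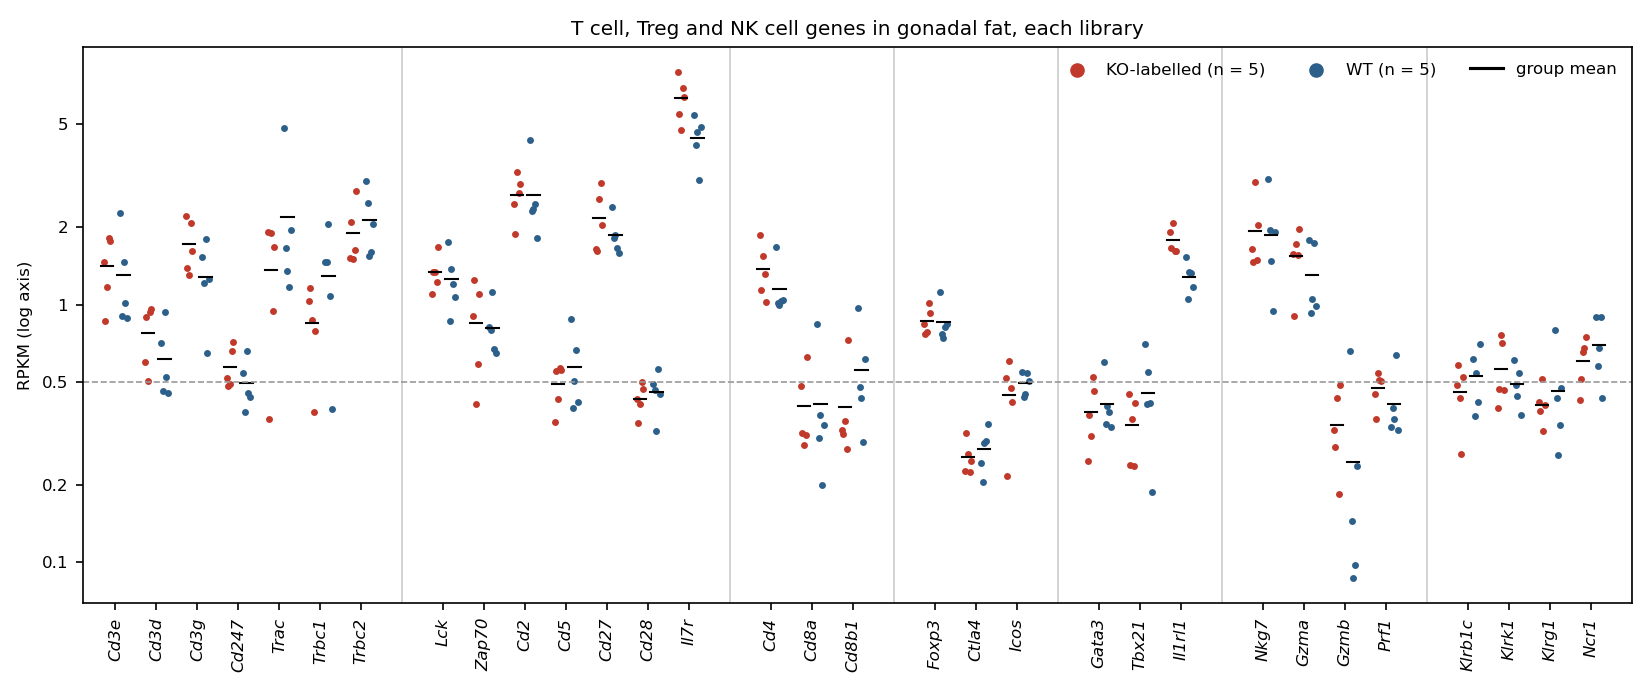
RPKM (log axis) of each gene in each library, KO-labelled left of WT for each gene, with bars for group means (n = 5 each) and vertical lines between the role groups. The dashed line is the 0.5 RPKM filter, and the KO-labelled points lie wholly above the WT points only for Il1rl1.

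The T cell receptor and CD3 genes were low and overlapped between groups. Values are given throughout in the order of animals 1, 4, 7, 8 and 17 for KO-labelled libraries and 2, 9, 19, 86 and 89 for WT libraries. Cd3e, a signalling subunit that every T cell carries, had 1.47, 0.862, 1.17, 1.82 and 1.76 RPKM in KO-labelled libraries, against 2.27, 0.902, 1.46, 1.01 and 0.885 RPKM in WT libraries. The highest value was in WT animal 2 and the lowest in KO animal 4. Cd3g, another CD3 subunit, had 2.21, 1.39, 1.30, 2.07 and 1.61 RPKM in KO-labelled libraries, against 1.52, 1.21, 1.79, 0.646 and 1.25 RPKM in WT libraries. It had the largest positive difference of the receptor genes, at 0.33 (limma, adjusted p = 0.312), and the groups overlapped. Cd3d averaged 0.779 ± 0.211 RPKM in KO-labelled libraries and 0.617 ± 0.204 RPKM in WT libraries. The group means of its transcript ENSMUST00000034602 were higher than those of the gene and went the other way. They were 3.10 ± 1.90 in KO-labelled libraries and 3.51 ± 0.60 in WT libraries (difference -0.51, limma, adjusted p = 0.854). That direction rests on a value of 0 in KO animal 7, the other KO-labelled values being 3.52, 2.78, 4.65 and 4.54. Cd247, the zeta chain that NK cells also use, averaged 0.573 ± 0.106 RPKM in KO-labelled libraries and 0.496 ± 0.108 RPKM in WT libraries. Over these 7 genes, 4 differences were above 0 and 3 below, with a median of 0.11 and 0 called.

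The 3 differences below 0 were those of the receptor constant regions. Trac, the alpha chain constant region, had 1.91, 0.359, 1.89, 0.948 and 1.67 RPKM in KO-labelled libraries, against 4.85, 1.65, 1.34, 1.17 and 1.94 RPKM in WT libraries. These rest on 3 to 14 reads in KO-labelled libraries and 7 to 32 reads in WT libraries, and WT animal 2 was far above the rest. The difference was -0.50 with all libraries (limma, adjusted p = 0.450) against -0.21 without that mouse and -0.24 without KO animal 4, the lowest. Trbc1 averaged 0.846 ± 0.296 RPKM in KO-labelled libraries and 1.29 ± 0.61 RPKM in WT libraries, and Trbc2 averaged 1.90 ± 0.54 RPKM in KO-labelled libraries and 2.14 ± 0.62 RPKM in WT libraries. Both pairs of groups overlapped, and the near-identity of the exons printed above leaves the split between the 2 genes uncertain.

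Among the kinases and surface receptors, Il7r stood higher in KO-labelled libraries without reaching the threshold. Il7r encodes the receptor that naive and memory T cells need for survival on IL-7, and innate lymphoid cells carry it too. It was the most abundant of the 31 genes, with 7.96, 5.46, 4.77, 6.93 and 6.40 RPKM in KO-labelled libraries, against 5.45, 4.14, 4.65, 3.04 and 4.90 RPKM in WT libraries. All KO-labelled mice but animal 7 lay above every WT mouse, animal 4 by a small margin. The difference was 0.46 (SE 0.16; limma, adjusted p = 0.105), and the ratio of the means was 1.42. Its p adjusted over all genes ranged over 0.0712 to 0.312 in the alternative fits, and the difference over 0.35 to 0.55 when single libraries were left out.

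The other genes of this role overlapped between the groups. Lck, the kinase that starts receptor signalling, averaged 1.33 ± 0.21 RPKM in KO-labelled libraries and 1.25 ± 0.34 RPKM in WT libraries. Zap70, the kinase it activates, averaged 0.848 ± 0.346 RPKM in KO-labelled libraries and 0.810 ± 0.186 RPKM in WT libraries. Cd2, an adhesion receptor of T and NK cells, had 2.46, 1.88, 3.27, 2.70 and 2.94 RPKM in KO-labelled libraries, against 4.35, 2.31, 2.34, 2.46 and 1.81 RPKM in WT libraries. The ratio of its means was 0.998, and WT animal 2 was far above the other WT mice. Cd27, a costimulatory receptor, averaged 2.16 ± 0.59 RPKM in KO-labelled libraries and 1.86 ± 0.32 RPKM in WT libraries. Cd5, which restrains receptor signalling, averaged 0.491 ± 0.096 RPKM in KO-labelled libraries and 0.574 ± 0.201 RPKM in WT libraries. Cd28, the main costimulatory receptor, stayed below the filter, with 0.348 to 0.501 RPKM in KO-labelled libraries and 0.323 to 0.565 RPKM in WT libraries.

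The coreceptors of helper and cytotoxic T cells overlapped between the groups. Cd4 had 1.86, 1.14, 1.54, 1.31 and 1.03 RPKM in KO-labelled libraries, against 1.68, 1.01, 0.995, 1.03 and 1.05 RPKM in WT libraries. In the WT group 4 mice lay close together and animal 2 lay above them, inside the KO-labelled range. The difference of 0.18 had an adjusted p of 0.502 (limma), and macrophages of some tissues carry CD4 as well. Cd8a had 0.483, 0.316, 0.285, 0.313 and 0.625 RPKM in KO-labelled libraries, against 0.841, 0.305, 0.375, 0.199 and 0.342 RPKM in WT libraries. Its means of 0.405 ± 0.146 RPKM in KO-labelled libraries and 0.412 ± 0.249 RPKM in WT libraries were within their spread. Cd8b1, the partner chain found on conventional cytotoxic T cells, had 6 to 18 reads in KO-labelled libraries and 6 to 22 reads in WT libraries.

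Marker ratios within a library set the coreceptor, regulatory and NK signal against the T cell signal of Cd3e. The ratio of Cd4 to Cd3e was 1.27, 1.32, 1.32, 0.721 and 0.583 in KO-labelled libraries, against 0.740, 1.12, 0.681, 1.02 and 1.18 in WT libraries. The mean log2 ratios, with 0.1 RPKM added to each gene, were -0.02 in KO-labelled libraries and -0.11 in WT libraries (2-sided exact permutation test, p = 0.698). For Cd8a to Cd3e they were -1.59 in KO-labelled libraries and -1.48 in WT libraries (exact permutation p = 0.659). For Foxp3 to Cd3e they were -0.61 in KO-labelled libraries and -0.48 in WT libraries (exact permutation p = 0.579). For Ncr1 to Cd3e they were -1.08 in KO-labelled libraries and -0.77 in WT libraries (exact permutation p = 0.270). All 4 had a Benjamini-Hochberg adjusted p of 0.698, and the groups overlapped in each.

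Regulatory T cell genes overlapped between the groups as well. Foxp3, the lineage-defining factor of regulatory T cells, had 0.841, 0.769, 0.783, 1.01 and 0.923 RPKM in KO-labelled libraries, against 1.12, 0.769, 0.742, 0.815 and 0.839 RPKM in WT libraries. WT animal 2 was the highest of the 10, and KO animals 1, 8 and 17 lay above the other 4 WT mice. The difference was 0.01 (limma, adjusted p = 0.955). The voom fit gave a 95% interval of -0.33 to 0.36 log2, or 0.795 to 1.28 times. Icos, a costimulatory receptor of activated and regulatory T cells, averaged 0.446 ± 0.145 RPKM in KO-labelled libraries and 0.497 ± 0.052 RPKM in WT libraries. Ctla4, the inhibitory receptor that regulatory T cells carry, was at 7 to 15 reads a library and 0.224 to 0.319 RPKM in KO-labelled libraries and 0.205 to 0.345 RPKM in WT libraries.

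Il1rl1 was the only one of the 31 genes whose groups did not overlap. It had 1.91, 1.66, 2.08, 1.62 and 1.62 RPKM in KO-labelled libraries, against 1.53, 1.05, 1.33, 1.32 and 1.16 RPKM in WT libraries. Every KO-labelled mouse lay above every WT mouse, a pattern that 7.93% of all genes tested at 0.1 RPKM showed in one direction or the other. Means were 1.78 ± 0.21 RPKM in KO-labelled libraries and 1.28 ± 0.18 RPKM in WT libraries, a ratio of 1.39. The difference of 0.36 (SE 0.10) had an adjusted p of 0.0636 (limma) and was not called. The read-based voom fit gave 0.47 (95% interval 0.21 to 0.74) and called it, with an adjusted p of 0.0328, or 0.0445 when no filter was used, in fits that called 7.21% and 4.07% of all genes. Over all alternatives the adjusted p ranged over 0.0328 to 0.246, and with median-ratio scaling the difference was 0.29 (limma, adjusted p = 0.207).

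The transcript table holds 5 Il1rl1 transcripts, of which 4 code the short or the long form. Another, ENSMUST00000173881, ends in the annotation before the forms part and was left out of the sums, with values of 0 to 0.488 in KO-labelled libraries and 0 to 0.397 in WT libraries. Summed over the 2 transcripts that end in the short form printed above, the values were 2.31, 1.21, 2.07, 1.39 and 0.789 in KO-labelled libraries, against 1.05, 0.430, 0.708, 0.849 and 0.778 in WT libraries. The lowest KO-labelled value, in animal 17, fell within the WT range, and the means were 1.55 ± 0.63 in KO-labelled libraries and 0.764 ± 0.227 in WT libraries. Summed over the 2 transcripts of the long form, the values were 1.43, 1.41, 1.58, 1.48 and 1.66 in KO-labelled libraries, against 1.48, 1.18, 1.56, 1.51 and 1.27 in WT libraries. The long form overlapped between groups, with means of 1.51 ± 0.11 in KO-labelled libraries and 1.40 ± 0.17 in WT libraries. The short form made up 49.0 ± 11.3% of both in KO-labelled libraries and 34.7 ± 5.8% in WT libraries. The transcripts were grouped after their values were seen, so these sums are a description with no test. Values of single transcripts varied widely within a group, ENSMUST00000174335 of the short form from 0 to 1.02 in KO-labelled libraries. In WT animals 2 and 89, Lck transcript ENSMUST00000102596 was at 0 while its transcript ENSMUST00000167288 was at 1.74 and 0.853. How well the values separate transcripts of a gene was not tested. The short transcript ENSMUST00000173514 alone differed by 0.68 (SE 0.23; limma, adjusted p = 0.347) and was not called. Of the members, 33 transcripts of 21 genes were tested and 0 were called by limma, against 0.544% of 44475 transcripts called. At an unadjusted p under 0.05 there were 4, all higher in KO-labelled libraries, and with median-ratio scaling there was 1. The share of all transcripts at that threshold was not computed, so the 4 have no background to be read against.

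**Figure D3:**
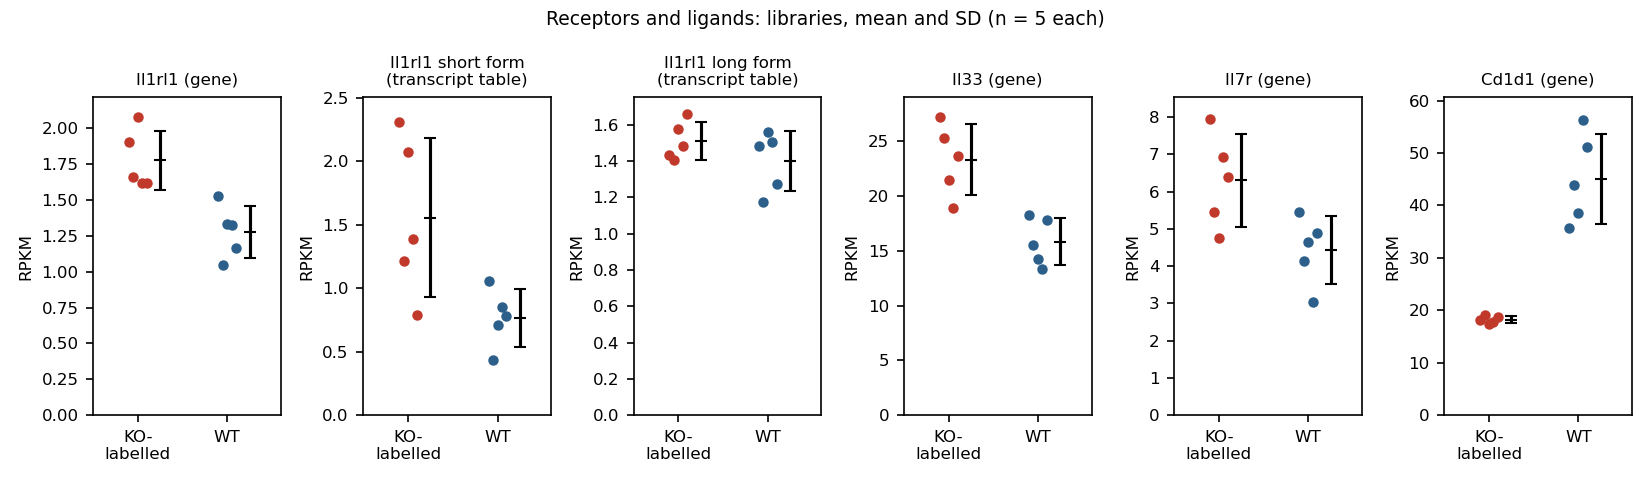
RPKM of Il1rl1, of its short and long forms in the transcript table, of Il33, Il7r and Cd1d1, one point per library with mean and SD (n = 5 each), each panel on its own axis from 0. Il1rl1, Il33 and Cd1d1 do not overlap between groups, while the short form, the long form and Il7r do.

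Markers of other ST2-expressing cells were read beside Il1rl1. Of 6 mast cell markers tested, 4 were higher and 1 was lower in KO-labelled libraries, and with median-ratio scaling 2 were higher (Cpa3 and Cma1) and 1 lower. Cpa3, a mast cell protease, averaged 3.81 ± 0.60 RPKM in KO-labelled libraries and 2.00 ± 0.36 RPKM in WT libraries, and the protease Cma1 averaged 6.81 ± 0.70 RPKM in KO-labelled libraries and 4.30 ± 0.42 RPKM in WT libraries. Kit, the stem cell factor receptor, was the lower one, at 3.50 ± 1.03 RPKM in KO-labelled libraries and 10.5 ± 3.3 RPKM in WT libraries. Over the 10 listed markers the summed level was 37.2 to 48.7 RPKM in KO-labelled libraries and 34.4 to 39.3 RPKM in WT libraries, and none was at 0 in all libraries. Of 6 group 2 innate lymphoid cell markers tested, Il1rl1 among them, 0 were called by limma, 2 had an unadjusted p under 0.05 and voom called 2, Il1rl1 and Arg1. The 10 genes listed for these cells summed to 904 to 1287 RPKM in KO-labelled libraries and 568 to 950 RPKM in WT libraries, nearly all of it Arg1, which macrophages also express. The part of mast cells and innate lymphoid cells in the Il1rl1 difference was not tested.

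The transcription factors of the helper lineages were low, with 15 to 38 reads a library for Gata3 and 7 to 28 for Tbx21. Gata3, the factor of type 2 helper cells that tissue regulatory T cells also use, averaged 0.383 ± 0.112 RPKM in KO-labelled libraries and 0.413 ± 0.108 RPKM in WT libraries. Tbx21, the factor of type 1 helper and NK cells, had 0.450, 0.239, 0.359, 0.236 and 0.416 RPKM in KO-labelled libraries, against 0.705, 0.411, 0.546, 0.417 and 0.188 RPKM in WT libraries. The WT group held both the highest value, in animal 2, and the lowest, in animal 89. Both genes were below the filter of the main test, and at the 0.1 RPKM filter their differences were -0.05 for Gata3 and -0.17 for Tbx21, with neither called.

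The 4 cytotoxic effector genes had small positive differences with wide error on the deposited scale, and with median-ratio scaling Nkg7 was at -0.01. Nkg7, a granule protein of cytotoxic cells, averaged 1.92 ± 0.64 RPKM in KO-labelled libraries and 1.87 ± 0.78 RPKM in WT libraries. Gzma, a granzyme of NK and cytotoxic T cells, had 1.57, 0.902, 1.72, 1.56 and 1.97 RPKM in KO-labelled libraries, against 1.78, 0.931, 1.05, 1.73 and 0.991 RPKM in WT libraries. The WT mice fell into 2 high and 3 low values, the KO-labelled mice into 4 high and 1 low, and the ranges overlapped. Gzmb, the granzyme of activated killer cells, had 7, 8, 11, 4 and 12 reads in KO-labelled libraries, against 15, 3, 2, 2 and 5 reads in WT libraries. The sums were 42 reads in KO-labelled libraries and 27 reads in WT libraries, of which WT animal 2 gave 15. Its voom difference of 0.73 had a 95% interval of -0.24 to 1.70, the highest upper bound of the 31 genes. Prf1, the pore-forming perforin, averaged 0.473 ± 0.071 RPKM in KO-labelled libraries and 0.412 ± 0.130 RPKM in WT libraries. The group median was 0.15, with 0 called.

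The NK receptors also overlapped. Ncr1, the activating receptor NKp46 that mouse NK cells carry, had 0.427, 0.514, 0.652, 0.678 and 0.747 RPKM in KO-labelled libraries, against 0.895, 0.575, 0.681, 0.898 and 0.434 RPKM in WT libraries. The lowest value of each group was nearly the same, and the 2 highest of the 10 were WT animals 86 and 2. The difference was -0.11 (limma, adjusted p = 0.705). Klrb1c, the NK1.1 receptor of C57BL/6 mice, averaged 0.459 ± 0.122 RPKM in KO-labelled libraries and 0.529 ± 0.136 RPKM in WT libraries. Klrk1, the activating receptor NKG2D, averaged 0.561 ± 0.164 RPKM in KO-labelled libraries and 0.492 ± 0.091 RPKM in WT libraries. Klrg1, a receptor of mature NK and effector T cells, averaged 0.409 ± 0.069 RPKM in KO-labelled libraries and 0.462 ± 0.205 RPKM in WT libraries. Of these 4 genes 1 difference was above 0, and the median was -0.08.

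How much change the data would allow differed from gene to gene. For 26 of the 31 genes the 95% voom interval lay within 1 log2 unit on either side of 0, that is within a doubling or a halving. The 5 others were Trac, Trbc1, Cd8b1, Tbx21 and Gzmb, all with few reads. The interval reached past a halving for the first 4 and past a doubling for Gzmb, so the fit leaves room for a difference of that size. For the other genes the interval does not show that the groups were equal.

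**Figure D4:**
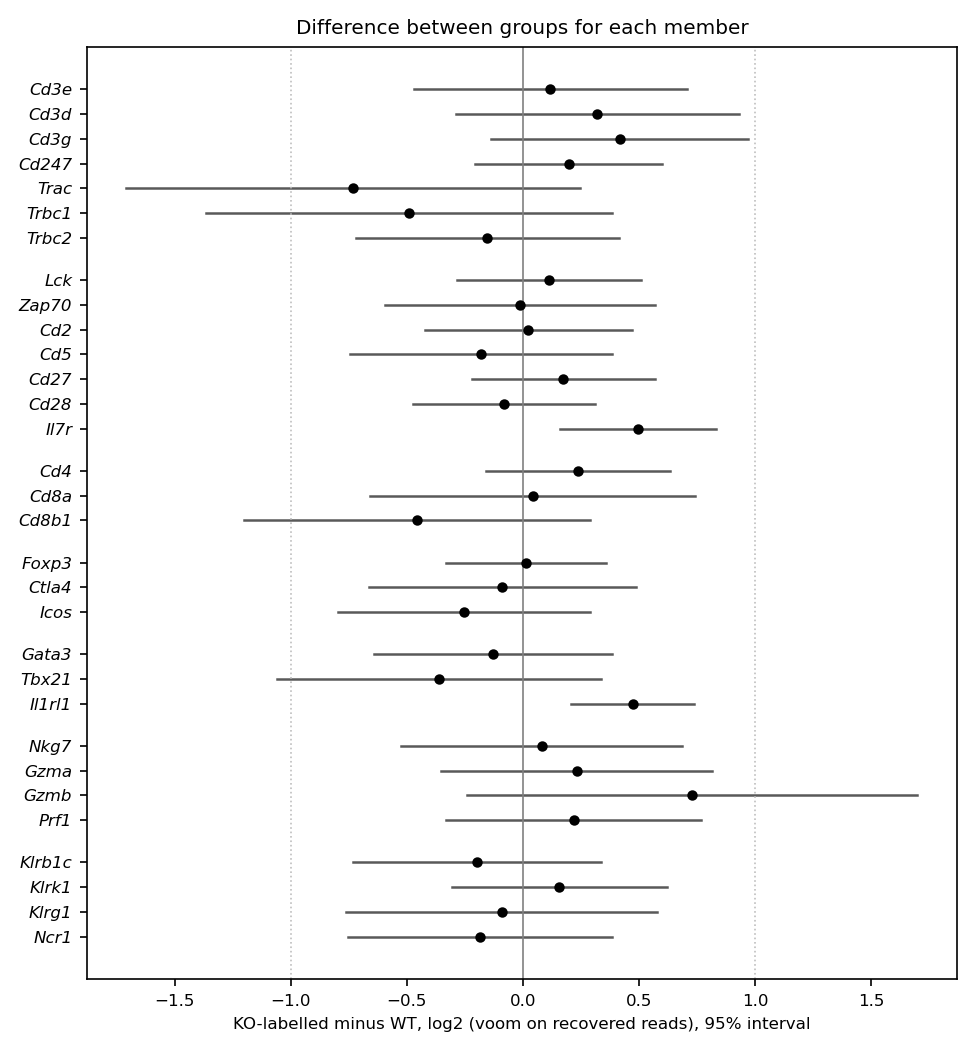
Difference between KO-labelled and WT libraries for each gene (log2, voom fit of recovered reads, n = 5 each) with its 95% interval, and dotted lines at 1 log2 unit either side of 0. Only the intervals of Il7r and Il1rl1 lie clear of 0, and 5 intervals reach past a dotted line.

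Other genes listed for the same cells gave 0 limma calls as well, against 5.95% of all genes tested. At an unadjusted p under 0.05 the share of all genes tested was 24.7%. Each gene named here had higher group means than Il7r, the most abundant of the 31, and which cells gave those values was not tested. Of 25 other T cell identity and receptor signalling genes, 13 were tested and 0 called, 3 with an unadjusted p under 0.05 and 0 called by voom, with a median of 0.07. The most abundant were Lcp2, an adaptor of receptor signalling, at 19.8 ± 2.9 RPKM in KO-labelled libraries and 15.8 ± 2.1 RPKM in WT libraries, and Thy1, which fibroblasts also express, at 17.9 ± 3.1 RPKM in KO-labelled libraries and 14.8 ± 1.3 RPKM in WT libraries. Of 20 other helper lineage and cytokine genes 11 were tested and 0 called, 4 with an unadjusted p under 0.05 and 0 called by voom, with a median of 0.16. Stat6, which relays IL-4 signals in many cell types, did not overlap, at 45.4 ± 1.8 RPKM in KO-labelled libraries and 38.7 ± 3.2 RPKM in WT libraries, but was not called (limma, adjusted p = 0.0655), and the factor Maf averaged 37.7 ± 4.5 RPKM in KO-labelled libraries and 31.1 ± 3.0 RPKM in WT libraries. Of 12 other regulatory T cell genes 8 were tested and 0 called, 0 with an unadjusted p under 0.05 and 0 called by voom, with a median of 0.02. Lrrc32, which anchors latent TGF-beta, averaged 9.39 ± 1.36 RPKM in KO-labelled libraries and 9.50 ± 1.32 RPKM in WT libraries, and the factor Batf averaged 8.69 ± 2.63 RPKM in KO-labelled libraries and 6.45 ± 1.44 RPKM in WT libraries.

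The wider cytotoxic, innate-like and memory lists held 0 limma calls too. Of 27 other cytotoxic and NK cell genes 26 were found under their symbols, 16 were tested and 0 called, 4 with an unadjusted p under 0.05 and 0 called by voom, with a median of 0.20. The most abundant were Tyrobp, an adaptor of activating receptors, at 396 ± 33 RPKM in KO-labelled libraries and 317 ± 46 RPKM in WT libraries, and the Fc receptor Fcgr3, at 121 ± 15 RPKM in KO-labelled libraries and 91.1 ± 15.1 RPKM in WT libraries. Macrophages express both. All 12 macrophage markers had differences above 0 on the deposited scale and 11 with median-ratio scaling, with 1 called (Itgam) on the deposited scale, 0 with that scaling and 4 by voom (Adgre1, Cd14, Itgam and Mrc1), and they summed to 4887 to 6176 RPKM in KO-labelled libraries and 3967 to 5278 RPKM in WT libraries. The part of macrophages in those values was not tested. Of 12 gamma delta and innate-like T cell genes 8 were found, 7 tested and 0 called, 1 with an unadjusted p under 0.05 and 0 called by voom, with a median of -0.06. Zbtb16, a factor that NKT cells use, averaged 27.5 ± 14.4 RPKM in KO-labelled libraries and 37.5 ± 11.6 RPKM in WT libraries. These means lie far above those of Cd3e, at 1.41 RPKM in KO-labelled libraries and 1.31 RPKM in WT libraries. Which cells gave the Zbtb16 values was not tested. Sox13 averaged 3.77 ± 0.33 RPKM in KO-labelled libraries and 4.17 ± 0.28 RPKM in WT libraries. Of 14 naive, memory, residency and checkpoint genes 13 were tested and 0 called, 5 with an unadjusted p under 0.05 and 1 (Cd52) called by voom, with a median of 0.26. Cd52, a surface glycoprotein of leukocytes, averaged 103 ± 4 RPKM in KO-labelled libraries and 78.5 ± 14.6 RPKM in WT libraries, and Klf2 averaged 60.4 ± 11.4 RPKM in KO-labelled libraries and 59.1 ± 5.9 RPKM in WT libraries.

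The calls lay among the ligands that act on T and NK cells, where 16 of 20 genes were tested and 2 were higher and 1 was lower in KO-labelled libraries, beside the 5.95% of all genes called. With median-ratio scaling or quantile normalization 0 of them were higher, and Cd1d1 alone stayed called. Cd1d1, which presents lipids to NKT cells and which adipocytes also express, had 18.1, 19.1, 17.3, 17.8 and 18.8 RPKM in KO-labelled libraries, against 35.7, 43.8, 38.6, 56.3 and 51.2 RPKM in WT libraries. The groups lay far apart, and the KO-labelled mice varied little among themselves. It fell by 1.27 on the log2 scale (SE 0.11; limma, adjusted p = 0.000164), and the call was kept in all 10 fits that left out a library. Adipocyte markers were lower in the same libraries, as given above, and their part in the Cd1d1 difference was not tested.

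Il33, the ligand of ST2, had 27.2, 25.3, 21.5, 18.9 and 23.7 RPKM in KO-labelled libraries, against 18.3, 15.5, 14.3, 13.3 and 17.8 RPKM in WT libraries. The groups did not overlap, and KO animal 8 lay just above WT animal 2. It was higher by 0.54 (SE 0.11; limma, adjusted p = 0.0255). The call was kept in 5 of 10 fits that left out a library, being lost without KO animals 1 or 17 or WT animals 9, 19 or 86, and it was lost with median-ratio scaling (0.45, adjusted p = 0.0986). Fibroblast and progenitor markers, of cells known to make IL-33 in fat, had 2 of 10 higher (Dpt and Lum; Dpt alone with median-ratio scaling) and summed to 1749 to 2048 RPKM in KO-labelled libraries and 1389 to 1682 RPKM in WT libraries. Of 8 mesothelial markers tested, 7 had differences above 0 (5 with median-ratio scaling), with 0 called by limma and 1 (Lrrn4) by voom. They summed to 301 to 366 RPKM in KO-labelled libraries and 266 to 320 RPKM in WT libraries. The part of either kind of cell in the Il33 difference was not tested. Cd86, a costimulatory ligand of antigen-presenting cells, averaged 5.10 ± 0.31 RPKM in KO-labelled libraries and 3.99 ± 0.50 RPKM in WT libraries. It was higher by 0.32 (SE 0.08; limma, adjusted p = 0.0481), a call kept in 2 of 10 fits that left out a library, those without WT animal 2 or 89, and lost with median-ratio scaling (0.24, adjusted p = 0.230).

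**Figure D5:**
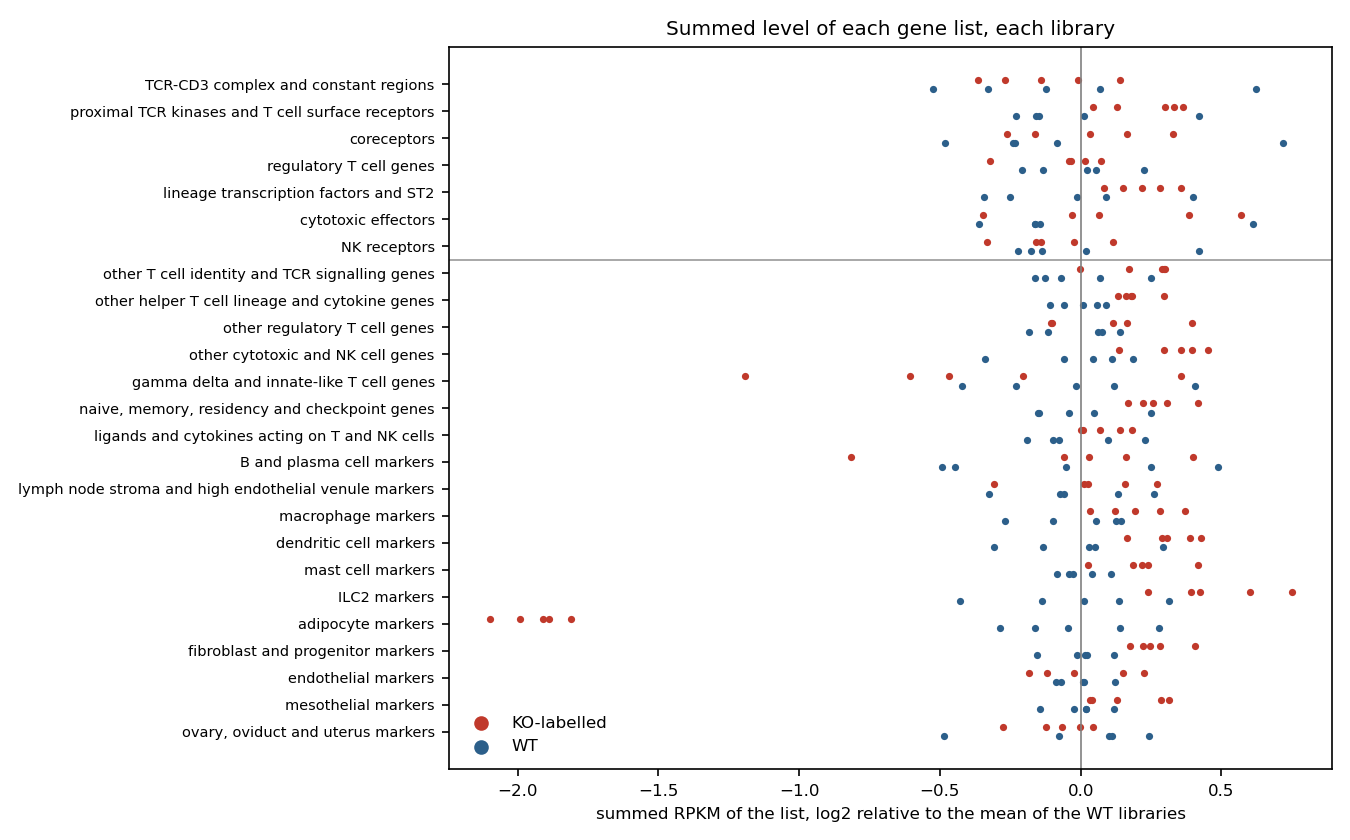
Summed RPKM of each list in each library, as log2 relative to the mean of the 5 WT libraries, with the 7 role groups of the 31 genes above the line and other lists below it, KO-labelled points drawn above WT points. The sums of the 7 role groups overlap between the groups, while the sums of adipocyte markers, fibroblast and progenitor markers and other helper T cell lineage and cytokine genes lie apart. The last of these sums is mostly Stat6 and Maf, and which cells gave their values was not tested.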

How the data were processed

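PolyA RNA of gonadal fat from 5 KO and 5 WT mice was analysed, grouped by the genotype labels. The authors deposited tables of genes and transcripts as RPKM, where the unit of the transcript values is known from the table's name alone. STAR and featureCounts are named among the tools, per the submitters' processing notes. For build, annotation, strandedness and the program behind the transcript values, nothing is given in the sources used here.

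Whole reads were recovered for 100% of 25122 genes above 0 in at least 3 libraries (tolerance 0.001), giving 14444263 to 20183652 reads per library. Genes with at least 0.5 RPKM in at least 5 libraries were fitted as log2(RPKM + 0.5) with limma 3.58.1 in R 4.3.3 (eBayes with trend and robust, statmod 1.5.0), 2-sided, with calls at p under 0.05 after Benjamini-Hochberg adjustment over all genes. Such differences understate the change of low genes. Voom fits used the recovered reads. Med19 and 4 marker ratios were compared by exact permutation over 252 assignments (scipy 1.17.1). Scripts were tested on simulated data.

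The members and lists were chosen with earlier results of these data known. All 31 members are named; of the other lists, called genes, or where fewer than 2 were called the 2 most abundant. Genes of other cell types are named where a result is read beside them. Of the listed genes, Sh2d1b1, Trdc, Trgc1, Trgc2, Trgc4 and Ighd were not found under that symbol.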

Additional observations from a re-analysis of the deposited data

Results flagged for a closer look

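Within groups of 5 mice, the highest or lowest library was marked where its gap to the nearest other library exceeded 0.71 of the group's range (Dixon's 95% value). Of 68 groups examined, 9 were marked, and chance marks about 1 in 20. The library of WT animal 2 was the highest of its group in 7 of the 9. In that library Trac was at 4.85 RPKM, Cd2 at 4.35 RPKM, Cd4 at 1.68 RPKM, Cd8a at 0.841 RPKM, Foxp3 at 1.12 RPKM, Gata3 at 0.598 RPKM and Gzmb at 0.663 RPKM. These genes were read in the same library, so the 7 are not independent of each other. The others were Cd8b1 at 0.730 RPKM in KO animal 17 and Prf1 at 0.640 RPKM in WT animal 86, each the highest of its group.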

How the results depend on the processing

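Of the genes tested, 681 were higher in KO-labelled libraries, against 292 with no filter, 101 with median-ratio scaling, 149 with quantile normalization, 70 with only animals numbered under 20, and 194 to 697 when 1 library was left out. The 332 lower genes became 137 with only animals numbered under 20 and 206 to 316 when 1 library was left out. Of the 31 members 0 were called in any planned limma fit on RPKM, and 1 (Il1rl1) with voom, also in a voom fit with no filter that was added after seeing the data. Of 454 alternative values of members tested, 420 kept direction and side of the threshold, and 32 changed sign, in 7 genes with small differences. Zap70 was at -0.0056 with a pseudocount of 0.1, -0.047 with median-ratio scaling, -0.015 with quantile normalization, -0.0114 and -0.0116 with the voom fits, -0.098 with animals numbered under 20, and -0.0907 to 0.143 with a library left out. Cd2 was at -0.0508, -0.0275 and -0.121 with median-ratio scaling, quantile normalization and animals numbered under 20, and -0.0731 to 0.195 with a library left out. Foxp3 was at -0.0468, -0.0153 and -0.0025 under those alternatives, and -0.0237 to 0.0789 with a library left out. Nkg7 was at -0.012 with median-ratio scaling, -0.126 with animals numbered under 20, and -0.101 to 0.225 with a library left out. Cd3e was at -0.0665 with animals numbered under 20. With a library left out, Lck ranged over -0.0079 to 0.174 and Icos over -0.148 to 0.0076. The log2 Cd4 ratio difference of 0.0855 was -0.0773 against the sum of Cd3e, Cd3d and Cd3g, and -0.0159 to 0.261 with a library left out, and that of Cd8a ranged over -0.207 to 0.0541. The Med19 difference of 0.0931 RPKM was -0.331 RPKM with median-ratio scaling and -0.205 to 0.398 RPKM with a library left out. The causes were not tested. No paired analysis was run, because the labels do not say whether any of the mice were paired. Genes with under about 20 reads a library, such as Gzmb and Trac, are limited by depth.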
